A study of Homo sapiens with 21 samples.

Results

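The libraries described here counted 3-way chromatin contacts of enhancers in BLaER1 cells, a human B cell leukaemia line that can be converted into induced macrophages (iMacs). They are the enhancer libraries of the parental line at 0 h and at 96 h of conversion, with the subclone that carries degradable CTCF left out, and hold 6 of the 21 samples of the series. Each of 51 of the 53 loci has a single enhancer as viewpoint, and IFNGR2 and TASL were left out. The study classed 36 loci as iMac loci and 15 as B cell loci from the expression of their genes during conversion.

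Both groups were the same BLaER1 line, which carries an inducible C/EBPα. At 0 h the cells were kept in medium without the inducing factors, so they stood for the B cell state. At 96 h they had received estradiol, which activates C/EBPα, together with IL-3 and CSF-1. Each group had 3 biological replicates, whose counts were merged before deposit, which leaves 1 library per condition. No spread between replicates could be computed, no p-value was calculated, and the line is a leukaemia line rather than primary B cells or macrophages. The libraries hold DNA contacts and no RNA, so the identity of the cells was not checked against marker expression.

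Enhancers are stretches of DNA, bound by transcription factors, that raise the transcription of a gene from a distance, and they come close to the promoter of that gene in the folded chromosome. In Tri-C, crosslinked chromatin is cut with NlaIII at CATG, ligated and captured at a viewpoint, so that a single read can join the viewpoint with several further fragments, called reporters. Sites bound by CTCF are the other elements of interest, since CTCF stops the loop-extruding complex cohesin and many of these sites lie at domain boundaries.

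A count here is 1 observation of a pair of reporters together with the viewpoint. The total of a locus is the sum over pairs that lie wholly within 1 Mb of its viewpoint, and shares are percentages of that total. The totals ranged from 21161 to 97266 per locus and library, with medians of 46546 at 0 h and 45161 at 96 h. In a distant pair the viewpoint and the 2 reporters are all over 10 kb apart from one another. An element was represented by a window of 12 kb around it. Overlapping windows of enhancers, or of CTCF sites, were merged, so a cluster or site can be wider than 12 kb. A value counted as measured with at least 20 counts over both libraries. A share was said to have risen or fallen between the libraries when it differed at least 1.5-fold and the 95% counting interval of the ratio excluded 1. All intervals come from an exact method that takes counts as independent. Pairs from the same read are not independent, so the intervals can be too narrow even for counting error. They leave out the spread between cultures, which is not known.

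The viewpoints themselves are distal elements. Of the 51 viewpoint fragments, 26 were intergenic, 16 lay in an intron of a protein-coding gene, 6 in an intron of a noncoding gene and 3 in an exon. At 50 of 51 loci the fragment under the capture probe held no reporter, as a viewpoint should, and all 5618726 fragment entries of the regions matched NlaIII fragments of hg38. Distances to the target promoter, the start of the canonical transcript, ran from 21.4 to 465 kb for the iMac class and from 21.3 to 588 kb for the B cell class.

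The sequences around 7 viewpoints follow, each 300 bases of the hg38 plus strand centred on the captured fragment. They were chosen because the promoter contacts of the first 3 rose most and those of the next 3 fell most among the loci named here, and because IL7R had the most promoter counts among the B cell viewpoints whose contacts fell. The capitals mark the letters of ETS (GAGGAA), AP-1 (TGANTCA), RUNX (TGTGGT) and E-box (CAGGTG) motifs on either strand.
CCR1 enhancer, intron of a noncoding gene, chr3:46089440-46089739: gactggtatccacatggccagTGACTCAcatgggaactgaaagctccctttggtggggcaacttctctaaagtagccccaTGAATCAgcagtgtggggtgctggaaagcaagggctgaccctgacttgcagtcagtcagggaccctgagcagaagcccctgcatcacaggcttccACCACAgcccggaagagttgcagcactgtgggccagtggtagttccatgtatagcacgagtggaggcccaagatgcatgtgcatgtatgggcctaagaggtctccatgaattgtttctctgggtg
FOSL2 enhancer, in introns of BABAM2 and MRPL33, chr2:27955680-27955979: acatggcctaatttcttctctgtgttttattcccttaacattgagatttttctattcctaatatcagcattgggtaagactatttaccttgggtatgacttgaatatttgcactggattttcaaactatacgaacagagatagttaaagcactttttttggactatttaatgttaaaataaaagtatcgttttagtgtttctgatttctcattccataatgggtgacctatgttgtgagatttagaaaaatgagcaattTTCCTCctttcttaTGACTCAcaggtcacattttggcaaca
CITED2 enhancer, intron of a noncoding gene, chr6:139839468-139839767: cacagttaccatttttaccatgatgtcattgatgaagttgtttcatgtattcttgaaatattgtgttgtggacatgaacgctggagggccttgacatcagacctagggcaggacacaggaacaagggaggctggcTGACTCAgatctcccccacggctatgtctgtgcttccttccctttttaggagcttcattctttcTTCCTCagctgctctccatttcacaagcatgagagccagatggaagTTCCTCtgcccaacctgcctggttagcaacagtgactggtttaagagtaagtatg
IGLL1 enhancer, intergenic, chr22:23752130-23752429: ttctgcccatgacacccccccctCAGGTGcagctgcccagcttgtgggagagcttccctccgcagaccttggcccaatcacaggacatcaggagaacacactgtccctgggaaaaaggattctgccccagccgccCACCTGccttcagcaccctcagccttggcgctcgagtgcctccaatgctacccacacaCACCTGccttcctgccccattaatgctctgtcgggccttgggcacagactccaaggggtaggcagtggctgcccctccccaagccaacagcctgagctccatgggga
BCL11A enhancer, intergenic, chr2:60100202-60100501: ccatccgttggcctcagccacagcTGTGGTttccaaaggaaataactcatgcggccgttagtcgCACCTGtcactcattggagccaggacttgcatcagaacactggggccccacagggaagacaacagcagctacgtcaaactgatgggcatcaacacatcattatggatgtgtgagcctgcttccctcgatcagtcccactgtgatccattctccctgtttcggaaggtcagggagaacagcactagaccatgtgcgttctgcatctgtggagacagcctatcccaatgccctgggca
EBF1 enhancer, intron of a noncoding gene, chr5:158511552-158511851: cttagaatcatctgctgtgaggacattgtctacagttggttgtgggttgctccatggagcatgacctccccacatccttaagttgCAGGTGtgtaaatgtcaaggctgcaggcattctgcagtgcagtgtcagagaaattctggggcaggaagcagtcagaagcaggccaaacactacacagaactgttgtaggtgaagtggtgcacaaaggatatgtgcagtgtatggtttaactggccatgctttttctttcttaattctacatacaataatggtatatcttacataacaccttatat
IL7R enhancer, intron of CAPSL, chr5:35908608-35908907: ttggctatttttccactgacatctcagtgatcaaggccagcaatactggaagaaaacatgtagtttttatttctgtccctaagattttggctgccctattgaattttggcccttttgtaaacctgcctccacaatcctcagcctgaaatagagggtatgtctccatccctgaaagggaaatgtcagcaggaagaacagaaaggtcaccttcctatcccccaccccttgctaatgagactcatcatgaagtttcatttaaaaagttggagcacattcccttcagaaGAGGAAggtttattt

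The 3 iMac sequences each hold an AP-1 match, while the 4 B cell sequences hold none. Over all viewpoints, 11 of 36 iMac windows (30.6%) and 1 of 15 B cell windows (6.67%) held an AP-1 match, against 9.28% of all 339468 windows of 300 bases in these regions. The ETS letters, the core that PU.1 and its relatives bind, were in 17 of 36 iMac windows (47.2%) and 3 of 15 B cell windows (20%), against 23.1% of all windows. RUNX letters were in 25% of iMac windows and in 53.3% of B cell windows, against 20.3%, and the E-box letters, bound by E2A among others, in 11.1% and 33.3%, against 23.9%. Matches to C/EBP letters (TTNNGCAA) were in 19.4% and 13.3%, against 15.1%, and matches to EBF letters (CCCNNGGGA) in 2.78% and 6.67%, against 2.83%. Median GC content was 45% in iMac windows and 48% in B cell windows. These are matches of letters, with no measure of binding.

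From its enhancer, the target promoter was contacted more often at 96 h at iMac loci and less often at B cell loci. Contacts with the target promoter in any distant pair (E-P-X, enhancer, promoter and any further fragment) rose at 25 of the 36 iMac loci, with no fall, and the ratio was above 1 at all 36. The median log2 ratio of shares was 0.98, and the median share went from 1.01% at 0 h to 2.14% at 96 h. Among all 12 kb windows within 300 kb of the same viewpoints, 17% rose and 20.5% fell, with a median log2 ratio of 0.00, and within 1 Mb, 8.77% rose and 33.1% fell. At B cell loci, promoter contacts fell at 11 of 15 and rose at none, with a median log2 ratio of -0.73 and a median share of 1.97% at 0 h and 1.12% at 96 h. Among all 12 kb windows at B cell loci, 5.83% within 300 kb fell and 14.2% rose, and within 1 Mb 8.4% fell and 22.6% rose. With a 30 kb promoter window 7 of the 15 fell (median -0.41), and these 12 kb shares are no background for that width. The loci were classed by the expression of the same genes in the same conversion, so the opposite directions are those of the classification.

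**Figure D1:**
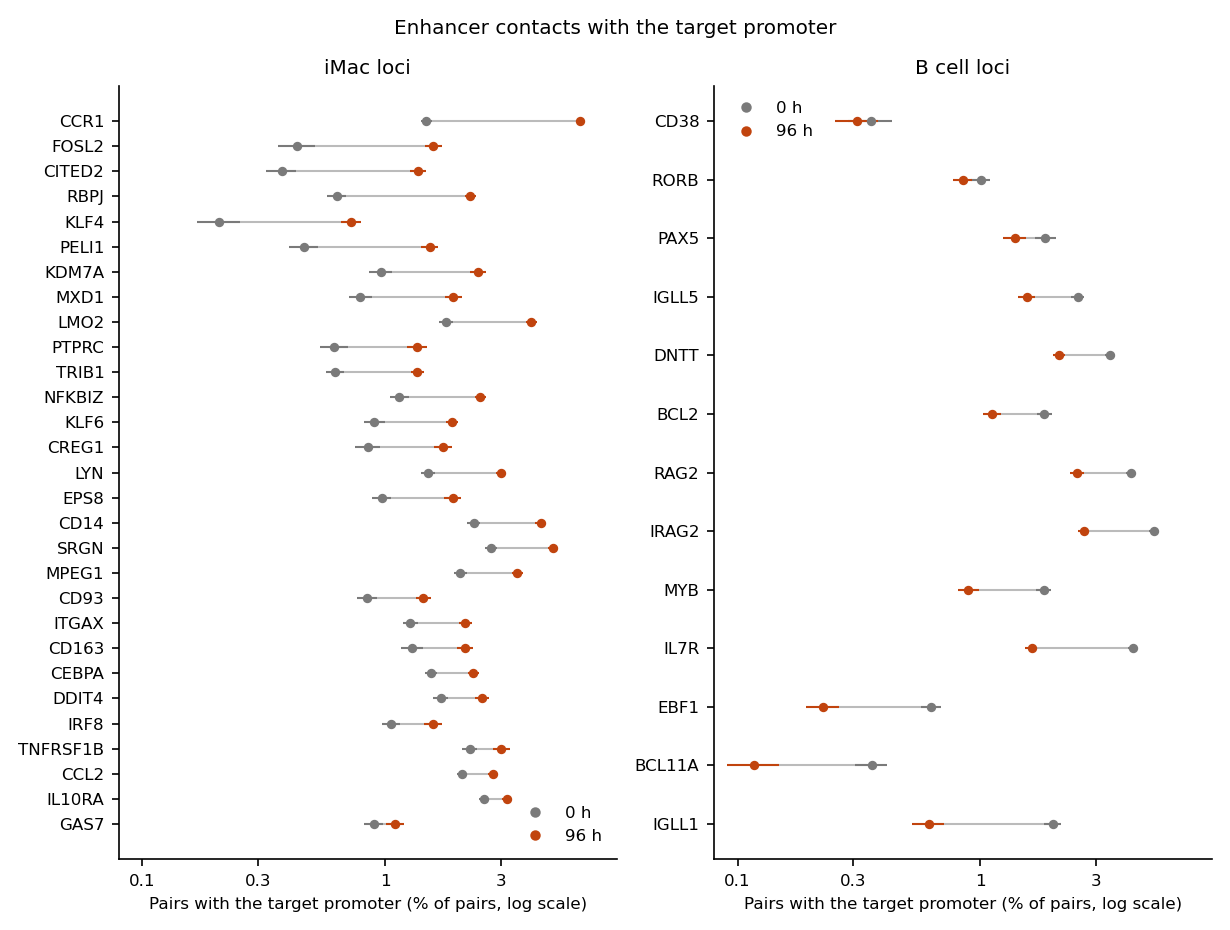
Share of each viewpoint's counts within 1 Mb that joined the target promoter (percent, log axis) for 42 loci, at 0 h (grey) and at 96 h (orange), with exact 95% counting intervals as bars. All iMac loci shown lie higher at 96 h, with CCR1 the highest at 6.32%, and all B cell loci shown lie lower.

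The largest rise was at CCR1. The enhancer of this gene, which encodes a chemokine receptor of monocytes and macrophages, met its promoter in 1280 of 86585 counts at 0 h and in 4985 of 78825 at 96 h. These are shares of 1.48% (1.40 to 1.56) and 6.32% (6.16 to 6.50), a 4.28-fold rise with an interval of 4.02 to 4.55. The 2 intervals lie far apart, and no other locus named here reached as large a share at 96 h.

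Promoter contacts of 11 of 13 loci of myeloid transcription regulators rose, with a median log2 ratio of 1.33. FOSL2 encodes a subunit of AP-1, and contacts of its enhancer with the promoter 437 kb away went from 128 to 600 counts, that is from 0.432% to 1.58% (3.65-fold, 3.02 to 4.46). CITED2, a transcriptional co-regulator that binds CBP and p300, had 196 counts at 0 h and 657 at 96 h (0.375% and 1.37%, 3.64-fold, 3.11 to 4.30) over 465 kb. RBPJ, the DNA-binding partner of Notch, went from 0.632% to 2.25% (3.55-fold, 3.20 to 3.95). All 3 began below the class median at 0 h, and RBPJ alone ended above the class median at 96 h. KLF4, a zinc finger factor of monocyte differentiation, remained lower, at 0.207% and 0.724% (3.48-fold, 2.79 to 4.41).

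Further regulators rose by ratios of 2.09 to 2.52. The histone demethylase gene KDM7A rose 2.52-fold (0.958% to 2.41%). MXD1, whose product competes with MYC for MAX, rose 2.42-fold, and NFKBIZ, an atypical IκB protein of inflammatory genes, rose 2.15-fold (495 and 1361 counts). Both depend on which start is taken as promoter: at the outermost annotated start the log2 ratios were 0.18 for MXD1 and 0.40 for NFKBIZ, and neither was called. LMO2, a LIM-domain adaptor of blood transcription factor complexes, rose 2.24-fold from 1.78% to 4.0% over 38.2 kb. With the promoter placed at the capture probe used for promoter viewpoints, an alternative chosen after seeing the data, its log2 ratio was 0.55, short of a call. KLF6 rose 2.09-fold over 346 kb.

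IRF8 and CEBPA did not reach the fold of a call. The IRF8 enhancer met its promoter in 1.06% of counts at 0 h and 1.58% at 96 h (1.49-fold, 1.32 to 1.68), and that of CEBPA, the factor whose inducible form drives the conversion, in 1.54% and 2.31% (log2 ratio 0.58, interval of the ratio 1.38 to 1.62). For both, the intervals exclude 1 but the ratio is below 1.5. Contacts of the CEBPA enhancer with the window at the promoter of the neighbouring C/EBP gene CEBPG rose from 1.77% to 3.42% (1.93-fold, 1.80 to 2.07). That window also covers a listed CTCF site, and the counts cannot tell the site from the promoter.

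Among the 13 loci of myeloid surface and secreted proteins, 9 rose, with a median log2 ratio of 0.76. Beside CCR1 they include PTPRC, the leukocyte phosphatase CD45 (2.19-fold), CREG1 (2.04-fold), CD14, the co-receptor for lipopolysaccharide (1.89-fold), and SRGN, the granule proteoglycan serglycin (2.73% to 4.92%, 1.80-fold). The other named members that rose, MPEG1, CD93, ITGAX and CD163, had ratios of 1.66 to 1.72. CCL2 (1.34-fold), TNFRSF1B (1.35-fold) and IL10RA (log2 ratio 0.32) were not called. The last of these already had 2.55% at 0 h and had 3.18% at 96 h, so its enhancer met the promoter often in both states.

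Of 10 signalling and other myeloid loci, 5 rose (median log2 ratio 0.77). PELI1, a ubiquitin ligase of Toll-like receptor signalling, went from 219 to 619 counts (0.462% to 1.53%, 3.30-fold, 2.83 to 3.88). TRIB1, a pseudokinase that promotes degradation of C/EBPα, went from 543 to 1074 counts (0.622% to 1.36%, 2.18-fold), and LYN, a Src family kinase, from 1.51% to 3.00% (1.99-fold). EPS8 rose 1.96-fold, whereas DDIT4, an inhibitor of mTORC1 signalling, had 1.69% and 2.52% (1.49-fold) and GAS7 had 0.896% and 1.10% (1.23-fold), neither of which was called.

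At B cell loci the lowest ratios were those of IGLL1, BCL11A and EBF1. IGLL1 encodes a part of the surrogate light chain of the pre-B cell receptor, and its enhancer met the promoter in 593 counts at 0 h and 176 at 96 h, or 1.98% (1.83 to 2.15) and 0.612% (0.525 to 0.709), a ratio of 0.31 (0.26 to 0.37). The zinc finger repressor BCL11A went from 0.357% to 0.117% over 453 kb (ratio 0.33), and EBF1, a factor that specifies the B lineage, from 439 to 166 counts or 0.628% to 0.224% over 588 kb (ratio 0.36). MYB, a factor of immature blood cells, went from 1.82% to 0.892% (ratio 0.49). PAX5, which maintains B cell identity, had 1.85% and 1.38% (ratio 0.75, 0.64 to 0.86) and was not called, although its log2 ratio was -0.66 in a 6 kb window and -0.75 as a share of distant pairs, both called. In this group of 4 factor loci, 3 fell and the median log2 ratio was -1.26.

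Loci of the B cell receptor and of recombination fell at 5 of 7, with a median log2 ratio of -0.70. IL7R, the receptor for a growth factor of early lymphocytes, had 2223 promoter counts at 0 h and 1180 at 96 h, 4.24% (4.07 to 4.41) and 1.62% (1.53 to 1.72), for a ratio of 0.38 (0.36 to 0.41). RAG2, a subunit of the recombinase of antigen receptor genes, went from 4.16% to 2.5% (ratio 0.60), DNTT, which adds nucleotides at the joints, from 3.43% to 2.11% (0.62), and IGLL5 from 2.52% to 1.55% (0.62). Although they fell, all 4 shares at 96 h were still above the median of the iMac promoters at 0 h. CD38, an ectoenzyme of B cells that also marks other leukocytes, had only 95 and 99 counts (ratio 0.88, 0.66 to 1.18).

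Among the 4 other B cell loci 3 fell. IRAG2 encodes a lymphoid membrane protein of the endoplasmic reticulum, and its enhancer had the largest share at a target promoter at 0 h, 5.17%, against 2.66% at 96 h (ratio 0.52, 0.48 to 0.55). This call is for the canonical start. At the outermost annotated start of IRAG2 the log2 ratio was 0.75, but that start lies less than 10 kb from the viewpoint. Most of its window falls in the 10 kb left out, so this value does not measure a distant promoter contact. BCL2, which inhibits cell death, went from 1.84% to 1.12% over 220 kb (ratio 0.61), and RORB had 1.00% and 0.845% (ratio 0.84), not called.

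The rises were larger at longer enhancer-promoter distances. Within 100 kb of the viewpoint, 22% of all windows rose and 4.86% fell at iMac loci, and 5.42% rose and 6.25% fell at B cell loci. Of the 16 iMac loci with the promoter within 60 kb, 8 rose with a median log2 ratio of 0.65, while 15.6% of windows at those distances rose. Between 60 and 120 kb 7 of 9 rose (median 1.03, against 26.1% of windows), and beyond 120 kb 10 of 11 rose (median 1.72), where 8.08% of windows rose and the windows' median was -0.36. Spearman's rho between distance and log2 ratio was 0.68 over the 36 iMac loci and -0.25 over the 15 B cell loci. The loci share a library at each time and longer distances have lower shares at 0 h, so this is a description only. GAS7, at 135 kb, was the one iMac locus beyond 120 kb that was not called, and beyond that distance 5 of 7 B cell loci fell, with CD38 and RORB not called.

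**Figure D2:**
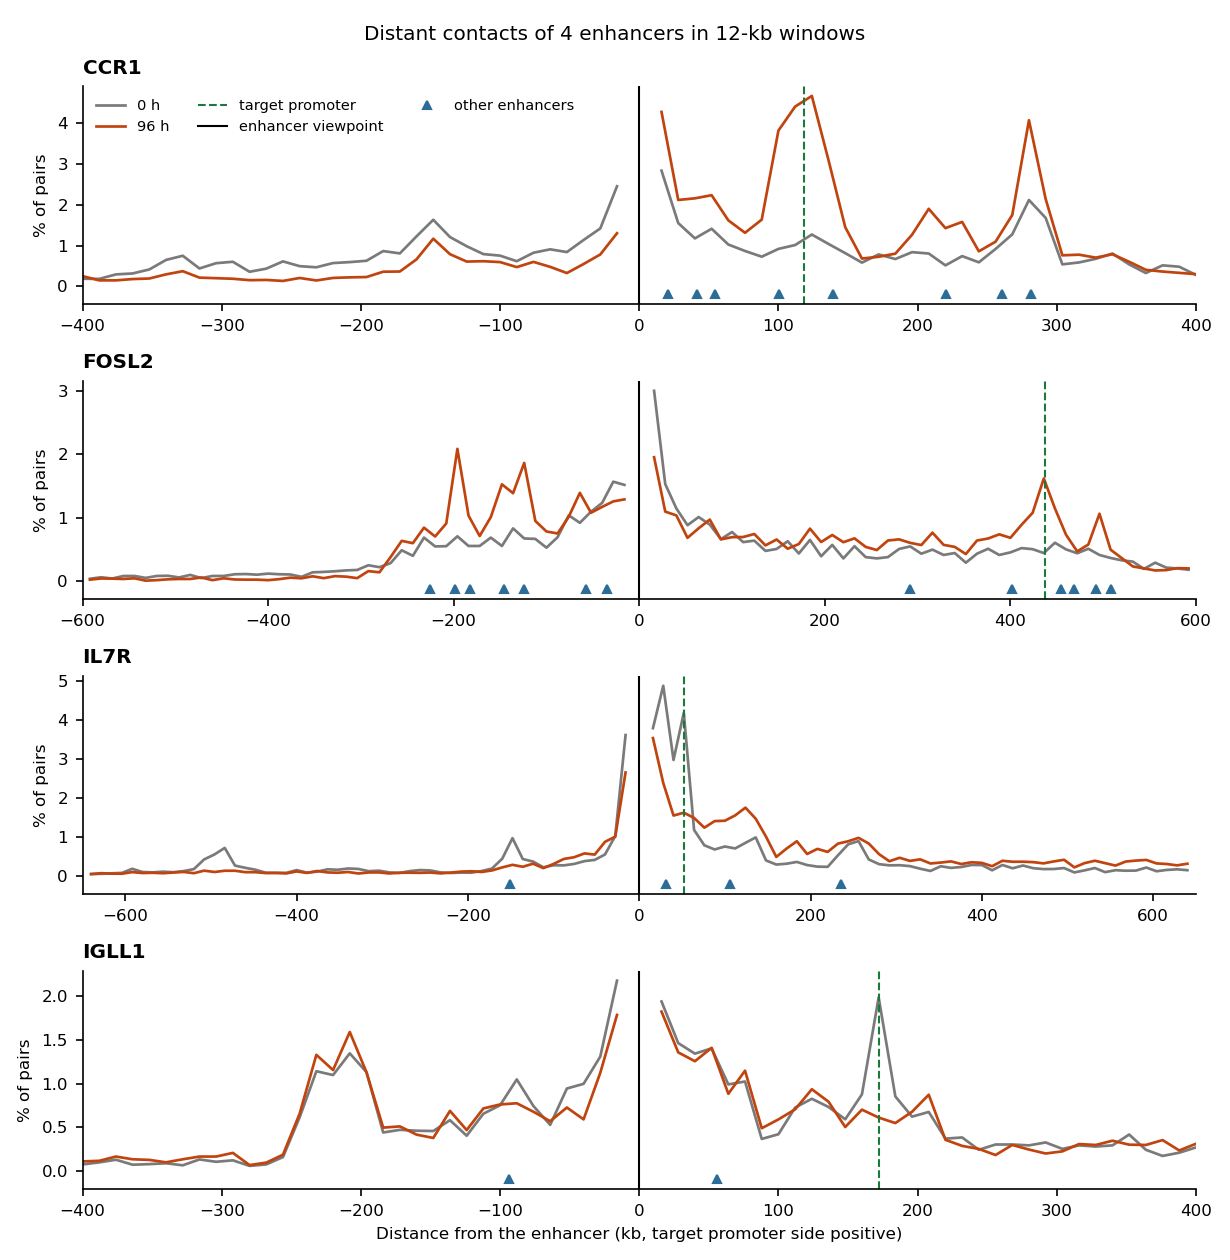
Share of each viewpoint's counts within 1 Mb (percent) in 12 kb windows by signed distance from the viewpoint (kb), at 0 h and 96 h, for CCR1, FOSL2, IL7R and IGLL1. The window at the target promoter stands higher at 96 h for CCR1 (6.32% against 1.48% at the promoter) and FOSL2 and lower for IL7R and IGLL1.

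The enhancer viewpoints also met other enhancers of the same locus. The iMac loci held 196 other enhancer clusters and the B cell loci 42, placed by a published list of elements. That list was made from contacts of promoters in the same line and conversion, so it is not independent of the direction. Contacts with them (E-E-X) rose at 90 of 196 and fell at 2 in iMac loci (median log2 ratio 0.51). In B cell loci they fell at 16 of 42 and rose at 2 (median -0.36). Beside these stand the 17% rising and 5.83% falling windows within 300 kb. Those windows are all 12 kb wide, whereas merged clusters are wider, can hold more counts and are then called more easily. Some clusters also lie beyond 300 kb. In a 30 kb window 46 rose at iMac loci and 9 fell at B cell loci, but wider windows merge more neighbours, so the number of clusters can differ. The rises were unevenly spread over loci: for myeloid transcription regulators 57 of 98 clusters rose, against 16 of 53 for surface and secreted proteins and 17 of 45 for signalling loci.

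At CCR1, 6 of 8 other clusters rose. The cluster 101 kb from the viewpoint went from 1.32% to 5.24% (3.98-fold), and those 139 kb and 220 kb away went from 1.98% to 4.97% and from 2.00% to 4.67%. All 5 clusters of CITED2 rose, up to 2.66-fold at 516 kb, and so did 8 of 13 of FOSL2, with the largest ratio, 3.20, at 199 kb. For KLF6 11 of 18 rose, up to 2.90-fold at 257 kb, but the cluster 577 kb away fell, from 0.542% to 0.280%. The only other fall at iMac loci was a cluster 125 kb from the CREG1 viewpoint, with 239 counts at 0 h and 80 at 96 h (ratio 0.34, 0.26 to 0.44).

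At B cell loci, EBF1 lost a frequent enhancer-enhancer contact. Its cluster 117 kb away held 3468 counts at 0 h and 1198 at 96 h, 4.96% and 1.62% (ratio 0.33, 0.31 to 0.35), and 3 of its 4 clusters fell. All 4 clusters of BCL11A fell, with ratios of 0.49 to 0.59. IL7R was mixed: the cluster at 31.3 kb went from 8.32% to 4.82%, the one at 151 kb from 0.839% to 0.274%, and the one at 105 kb rose from 0.782% to 1.59% (2.03-fold). The other rise at a B cell locus was 106 kb from the IRAG2 viewpoint (1.86% to 3.30%, 1.77-fold).

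The 3-way contact of viewpoint, other enhancer and target promoter in the same molecule (E-E-P) moved in the same directions. It rose at 34 of the 36 iMac loci, with a median log2 ratio of 1.40 and median shares of 0.156% and 0.467%, and fell at 11 of the 13 B cell loci with enough counts, with a median of -1.47 (7 fell in a 30 kb window). Among all single pairs of 12 kb windows within 300 kb, 29.4% rose and 7.4% fell at iMac loci, and 11% rose and 15.7% fell at B cell loci. The triples of a locus are summed over all its other enhancer clusters, so they are called more easily than single pairs. Some target promoters and clusters also lie beyond 300 kb, so these percentages are not a like comparison for the triples. All 13 loci of transcription regulators and all 13 of surface and secreted proteins rose, as did 8 of 10 signalling loci.

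CCR1 had 424 such triples at 0 h and 2359 at 96 h, the most of any locus named here at 96 h (0.490% to 2.99%, 6.11-fold, 5.51 to 6.79). RBPJ went from 49 to 277 counts (7.28-fold, 5.40 to 10.2), PELI1 from 26 to 143 (6.34-fold, 4.22 to 10.2) and KLF4 from 17 to 126 (6.08-fold, 3.74 to 11.0). CITED2 had 4 and 38 counts, so its ratio of 9.31 has a wide interval, 3.72 to 39.9. CD14 triples rose 3.52-fold, those of LMO2 3.49-fold and those of IRF8, whose promoter contact alone was not called, 2.42-fold (1.95 to 3.02).

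The B cell triples became rare. EBF1 had 54 at 0 h and 8 at 96 h (ratio 0.15, 0.06 to 0.30), IGLL1 59 and 9 (0.17, 0.07 to 0.32) and MYB 108 and 30 (0.24, 0.16 to 0.37). The loci with most triples at 0 h were IL7R (647), IRAG2 (626) and RAG2 (495), and at 96 h they had 246, 238 and 127, with ratios of 0.27, 0.30 and 0.31. In shares, IL7R triples went from 1.23% to 0.339% and RAG2 triples from 1.16% to 0.364%.

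The triples moved further than the promoter contacts of which they are a subset. The log2 ratio of E-E-P was above that of E-P-X at 34 of 36 iMac loci (median difference 0.44) and below it at 12 of 13 B cell loci (median -0.59). Windows without regard to elements differed in the same directions. Within 300 kb, the median log2 ratio at iMac loci was 0.00 for single windows and 0.41 for pairs of windows. At B cell loci it was 0.12 and -0.02. How much of the difference is particular to the triples was not tested. Pairs with both reporters at other enhancers rose at 23 of 34 measured iMac loci (median log2 ratio 1.00) and fell at 5 of 11 B cell loci (median -0.46). At CCR1 these pairs went from 1434 to 4367 counts (1.66% to 5.54%), and at EBF1 from 172 to 42 (0.246% to 0.0568%). They too are summed over each locus. Of single pairs of 12 kb windows within 300 kb, which are called less easily, 29.4% rose and 7.4% fell at iMac loci. At B cell loci 11% rose and 15.7% fell.

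**Figure D3:**
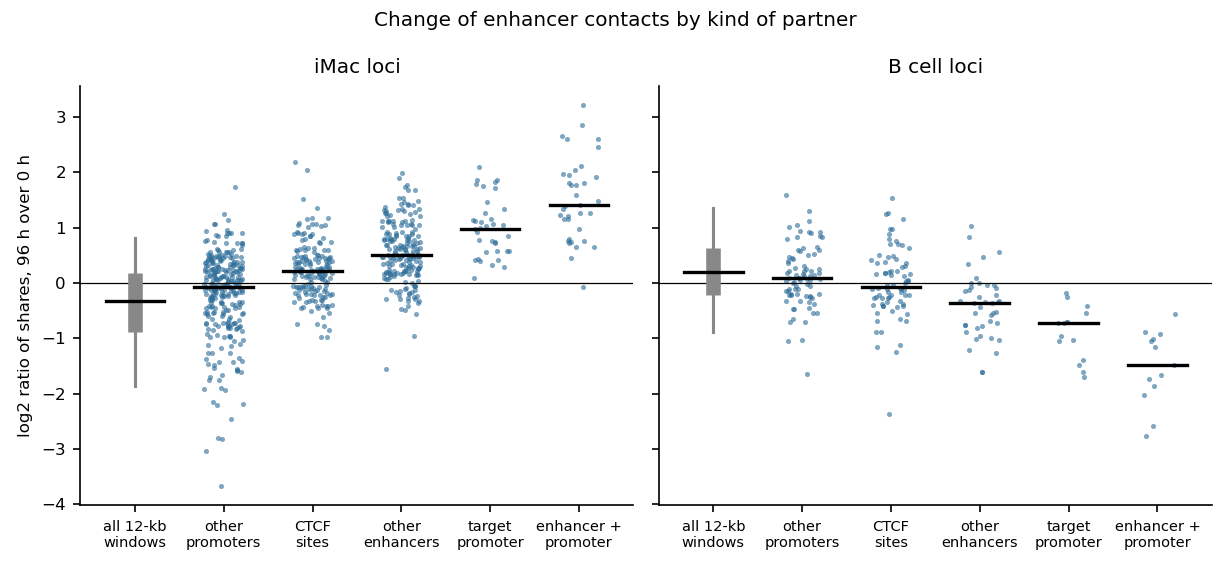
Log2 ratio of shares, 96 h over 0 h, for each kind of contact from the enhancer viewpoints, iMac loci and B cell loci separately, with a black line at each median. For all 12 kb windows the thin line spans the 5th to 95th percentile and the bar the quartiles. Target promoters (medians 0.98 and -0.73) and E-E-P triples (1.40 and -1.47) lie apart by class, and CTCF sites (0.21 and -0.06) much less.

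At iMac loci a larger share of promoter contacts had another enhancer as their further fragment at 96 h, and at B cell loci a smaller one. The median share of promoter contacts whose partner lay at another enhancer went from 16.1% to 23.2% at iMac loci, higher at 96 h in 34 of 36, and from 13.8% to 9.79% at B cell loci, lower in 13 of 15. The median change of the latter, -5.73 percentage points, was -0.52 in a 30 kb window. At CCR1 it went from 33.1% to 47.4% and at CD14 from 26.9% to 50.4%, while at EBF1 it went from 12.3% to 4.82%. All distant reporters moved likewise, and relative to them the excess of enhancers among the partners of the promoter did not grow: its median was 1.43 at 0 h and 1.31 at 96 h at iMac loci, and 1.57 and 1.47 at B cell loci. It was above 1 at 29 of 36 iMac loci at 0 h and at 35 at 96 h.

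Distant pairs with both reporters at another enhancer, a CTCF site or the target promoter went the same way at every locus of a class. Their share of all distant pairs went from a median of 5.06% to 9.25% at iMac loci, higher at 96 h at all 36. At B cell loci it went from 4.07% to 2.32%, lower at all 15. The target promoter is among these places, so the measure includes the E-E-P triples and partly repeats them. CCR1 reached 26.7% from 9.77%, and CD14 25.6% from 8.46%. IL7R went from 16.2% to 6.79% and IRAG2 from 10.8% to 5.68%.

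Promoter contacts whose other reporter lay next to the viewpoint changed in the same directions, up at iMac loci and down at B cell loci. Pairs with 1 reporter at the promoter and the other within 10 kb of the viewpoint had a median log2 ratio of 0.96 at iMac loci (above 0 at 35 of 36) and -0.93 at B cell loci (below 0 at all 15). In these pairs nothing but the promoter is distant from the viewpoint, and the difference between their log2 ratios and those of the distant pairs went both ways at iMac loci (from -0.90 to 0.88, above 0 at 20 of 36, median 0.06). At B cell loci it was below 0 at 12 of 15 (median -0.41).

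**Figure D4:**
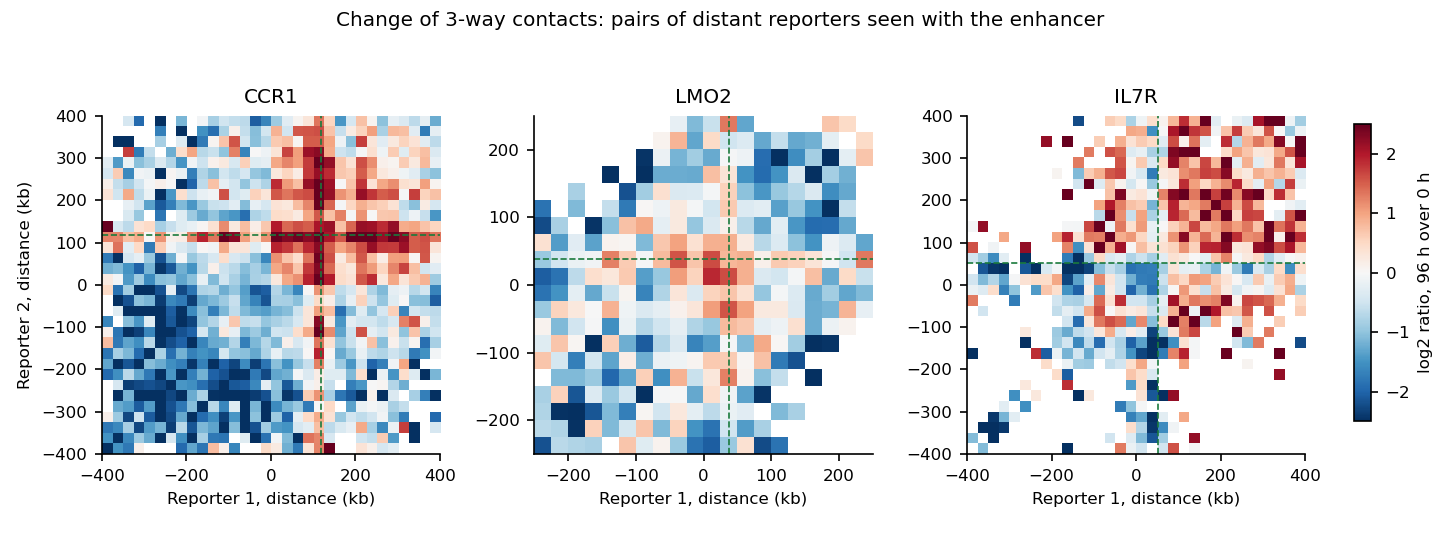
Change in pairs of reporters, log2 ratio of shares at 96 h over 0 h, by distance of both reporters from the viewpoint (kb), for CCR1, LMO2 and IL7R. The green dashed lines mark the target promoter, and white bins held too few counts. Pairs along the promoter lines gained at CCR1 (E-P-X 4.28-fold) and LMO2 (2.24-fold) and lost at IL7R (ratio 0.38).

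The median changes at CTCF sites were small. Contacts with CTCF sites outside enhancer and target promoter windows (E-C-X) rose at 36 of 172 sites and fell at 7 in iMac loci (median log2 ratio 0.21). In B cell loci they rose at 13 and fell at 9 of 76 (median -0.06). Some of these sites share a window with the promoter of another gene, as near PTPRC at 387 kb, so they share counts with the other promoters given below. The shares that rose, 20.9% in the iMac class and 17.1% in the B cell class, are near those of all windows within 300 kb, 17% and 14.2%. The shares that fell, 4.07% and 11.8%, stood beside 20.5% and 5.83% of those windows. Some sites lie farther away, and within 1 Mb 8.77% of iMac windows rose and 33.1% fell. With a 6 kb window 77 iMac sites rose, out of a set that can differ from the 172 because sites are merged and left out by window width. Single sites had larger ratios. The IL7R enhancer lost most of its contacts with a site 495 kb away, 281 counts at 0 h and 75 at 96 h (ratio 0.19, 0.15 to 0.25), and gained on 131 kb (1.18% to 1.89%) and 819 kb (0.583% to 1.01%). At EBF1 sites at 184, 317 and 337 kb had ratios of 0.42 to 0.46.

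The largest rise at a CTCF site of a B cell locus was near IRAG2, 133 kb from the viewpoint, with 381 counts at 0 h and 1404 at 96 h (1.03% to 2.99%, 2.89-fold, 2.58 to 3.25). A site 157 kb away rose 2.38-fold and one 272 kb from the PAX5 viewpoint 2.39-fold. Among iMac loci, sites near CD93 (206 kb) and CITED2 (715 kb) both rose 2.26-fold. At CCR1 a site 73.6 kb away rose (1.57-fold), while sites at 328 kb (ratio 0.51) and 578 kb (0.58) fell.

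Triples of viewpoint, CTCF site and target promoter followed the promoter. They rose at 24 of 33 iMac loci (median log2 ratio 1.18) and fell at 7 of 14 B cell loci (median -0.80). Among single pairs of 12 kb windows within 300 kb, 29.4% rose and 7.4% fell at iMac loci. At B cell loci 11% rose and 15.7% fell. The triples of a locus are summed over all its CTCF sites, so they are called more easily than a single pair of windows. RBPJ triples went from 35 to 155 counts (5.69-fold, 3.96 to 8.55), KDM7A from 28 to 104 (4.42-fold, 2.93 to 7.06) and CCR1 from 99 to 271 (3.00-fold). Those of IGLL1 went from 71 to 12 (ratio 0.18) and of EBF1 from 53 to 15 (0.27). At RAG2 the triples with a CTCF site had 86 and 64 counts (ratio 0.91, 0.65 to 1.27), not called, beside a ratio of 0.31 for its triples with another enhancer.

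Promoters of other protein-coding genes within 500 kb did not share the change of the target. At iMac loci 26 of 281 rose and 69 fell (9.25% and 24.6%, median log2 ratio -0.07). At B cell loci 14 of 81 rose and 6 fell (17.3% and 7.41%, median 0.10). Among all windows within 1 Mb, 8.77% rose and 33.1% fell at iMac loci, and 22.6% rose and 8.4% fell at B cell loci. Within 300 kb, 17% rose and 20.5% fell at iMac loci, and 14.2% rose and 5.83% fell at B cell loci. Of the 32 iMac loci with other promoters in range, the target had the highest share of all at 25 at 0 h and at 28 at 96 h, and the largest ratio at 20. Of the 12 B cell loci it was first at 9 at 0 h and at 6 at 96 h, and had the lowest ratio at 9. IGLL1 went from first to rank 9 of 13 promoters by share, and CCR1 from rank 3 to first.

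The neighbourhood of CCR1 held both directions. Contacts with the promoter of the chemokine receptor gene CCR3 rose from 0.782% to 1.20% (1.53-fold), on the same side as CCR1. On the other side they fell at the chemokine receptor genes XCR1 (0.923% to 0.467%, ratio 0.51) and CCR9 (0.726% to 0.228%, 0.31), and at LZTFL1 (0.36) and SLC6A20 (0.33). The enhancer of RAG2 met RAG1, the partner subunit, in 5.23% of counts at 0 h and 4.39% at 96 h (ratio 0.84, not called), a higher share than RAG2 at both times. Near LMO2 the promoter of CAPRIN1 had 0.365% and 0.479% (1.31-fold, not called), and near KDM7A that of SLC37A3 fell (ratio 0.58).

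The largest falls at other promoters were in the protocadherin clusters seen from the CD14 enhancer. PCDHA3, PCDHA7 and PCDHA11 had 90 to 94 counts each at 0 h and 8 or 9 at 96 h (ratios 0.12 to 0.14), and PCDHB2 had 60 and 3 (ratio 0.08, 0.01 to 0.21). These genes are similar tandem copies, so reads may be shared between them. The largest rises were DNAI7 from the IRAG2 enhancer, with 103 and 323 counts (2.45-fold), PCBP1 from the MXD1 enhancer (324 and 614 counts, 2.38-fold), NXT1 from the CD93 enhancer (2.22-fold) and STRAP from the EPS8 enhancer (2.08-fold). At these 4 loci a gene other than the target thus gained contacts, while the target promoter rose at MXD1, CD93 and EPS8 and fell at IRAG2.

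The distances over which the enhancers made contacts shifted too. At iMac loci the share of reporters 30 to 100 kb from the viewpoint went from a median of 20.3% to 25.5%, higher at 96 h at 33 of 36, and that of reporters 300 to 1000 kb away from 23.0% to 16.2%, lower at 32 of 36. The median distance of a distant reporter was 121 kb at 0 h and 96.9 kb at 96 h. B cell loci went the other way, from 18.4% to 22% at 300 to 1000 kb (higher at 10 of 15) and from 93.6 kb to 123 kb (longer at 12 of 15).

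**Figure D5:**
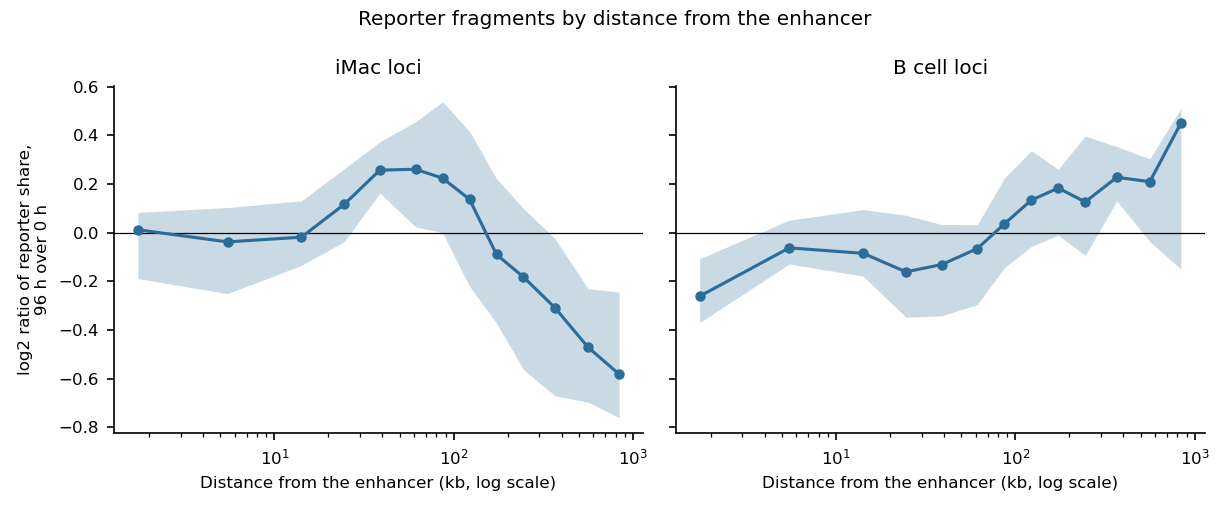
Log2 ratio of the share of reporters, 96 h over 0 h, by distance from the viewpoint (kb, log axis), as median and quartiles over 36 iMac loci and 15 B cell loci. At iMac loci the median is highest at 50 to 75 kb (0.26) and lowest at 700 to 1000 kb (-0.58), and at B cell loci it is highest at 700 to 1000 kb (0.45).

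Contacts on the same chromosome beyond 1 Mb increased their part at B cell loci. They made up a median of 32.3% of a viewpoint's chromosome counts at 0 h and 40.8% at 96 h, higher at all 15 loci, with EBF1 going from 27.1% to 44.4%, IRAG2 from 28.8% to 42.4% and IL7R from 27.8% to 40.3%. At iMac loci the medians were 37.4% and 34.8%, lower at 24 of 36. The B cell falls given above are shares within 1 Mb and so do not include this shift.

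At some loci the sides of the viewpoint shifted against each other. At CCR1 reporters on the side away from the promoter made up 48.5% of distant reporters at 0 h and 22.4% at 96 h, while those between viewpoint and promoter went from 15.7% to 26.9%. At IL7R those between viewpoint and promoter went from 27.3% to 13.6% and those past the promoter from 36.7% to 63.6%. At LMO2 the median reporter moved from 95.7 kb to 46.5 kb.

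Without regard to any list of elements, the 12 kb window with the largest rise overlapped the target promoter at 10 of 36 iMac loci, among them CCR1, FOSL2, LMO2 and TRIB1, another enhancer at 6, a CTCF site at 4, another promoter at 4 and none of these at 12. The window of largest fall at B cell loci overlapped the target promoter at 3 of 15 (IGLL1, IRAG2 and PAX5), and none of these elements at 8. The PAX5 fall and the largest rise at TNFRSF1B were not called. Only windows with at least 50 counts over both libraries entered, and each was counted once, under the first kind it overlapped in the order given. The share of all windows that overlap each kind was not computed, so these numbers have no background to be read against. At EBF1 it was the enhancer cluster near 112 kb (3.42% to 1.12%) and at IL7R the CTCF site near 484 kb. The viewpoints of IGLL1 and IGLL5 lie less than 1 Mb apart on chromosome 22, so that their regions overlap and these 2 loci are not separate neighbourhoods.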

How the data were processed

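Per the labels, Tri-C libraries were made from BLaER1 cells and processed against hg38. The authors ran CapCruncher in capture mode, merged replicates and extracted reads with at least 2 reporters on the viewpoint's chromosome. The deposited unit is a count per pair of reporter fragments. Raw counts were used, without normalization for fragment density. A pseudo-count of 0.5 entered log2 ratios, and intervals are exact (Clopper-Pearson) at 95%. Enhancer and CTCF positions came from the element list of the study, promoters from canonical GENCODE starts. Loci, element lists and rules were chosen with earlier results of these data known. Named loci are those the study's text names, the 6 called loci of largest rise and of largest fall per measure with at least 50 counts, the 4 members of each sublist with most counts, and at most 4 called other promoters in each direction. Other named features, such as the neighbours of CCR1, were chosen after their values were seen. Values of 9 single loci are not reported here, although they enter all counts. IRAG2 is labelled LRMP. Calls were tested on simulated independent counts, which cannot show the effect of pairs that share a read. Python 3.11.15, NumPy 2.4.6, pandas 2.3.3, SciPy 1.17.1 and matplotlib 3.10.9 were used.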

Additional observations from a re-analysis of the deposited data

How the results depend on the processing

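Of 430 summary values under 15 alternatives, 370 kept their side of the threshold or stayed within 1.5 times. Of the rest, 33 became weaker, 23 stronger and 4 moved. None was labelled reversed, but counts and percentages of windows could not receive that label. Medians below the 1.5-fold threshold could not receive it either, so its absence says little about direction. The cause of these shifts was not tested beyond the construction of each alternative. Leaving out a replicate could not be done. No paired analysis was possible because each file pools the replicates of its group. Windows of elements were rebuilt at each width, so the numbers of clusters, sites and other promoters can differ from those at 12 kb. In a 6 kb window, E-E-X at iMac loci had a median log2 ratio of 0.61, 4 enhancer contacts rose at B cell loci, 77 CTCF contacts rose at iMac and 15 fell at B cell loci, and 51 other promoters rose at iMac and 10 fell at B cell loci. In a 30 kb window, promoter contacts fell at 7 B cell loci (median -0.41), E-E-X rose at 46 iMac clusters and fell at 9 B cell clusters, E-E-P fell at 7 B cell loci, CTCF contacts rose at 15 iMac sites and rose at 8 and fell at 4 B cell sites, 15 other promoters rose at iMac loci, and the B cell share of enhancer partners changed by -0.52 percentage points. With the whole chromosome as total, 1 enhancer contact and 8 CTCF contacts rose and 15 CTCF contacts fell at B cell loci, 12.8% of B cell windows fell, and the share beyond 300 kb changed by -3.67 (iMac) and 1.34 (B cell) percentage points. With distant counts as total, 5 E-E-X contacts fell at iMac and 1 rose at B cell loci. Counting each fragment pair once left 4 such falls at iMac loci, as did dividing by the median ratio at the same distance, with which 4 enhancer contacts rose at B cell loci, and as did leaving out pairs of neighbouring fragments, an alternative chosen after seeing the data. With 20 kb excluded, the E-E-X median was 0.60 at iMac loci and enhancer partners changed by -3.58 points at B cell loci.

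At a fold of at least 2, promoter contacts fell at 6 B cell loci, E-E-X rose at 44 and fell at 1 iMac clusters and rose at 1 and fell at 6 B cell clusters, CTCF contacts rose at 14 and fell at 0 iMac sites and rose at 4 and fell at 4 B cell sites, and other promoters rose at 5 and fell at 36 for iMac and rose at 5 and fell at 3 for B cell loci, with 2.78% and 20.3% of iMac windows and 12.1% and 3.8% of B cell windows rising and falling. At the lowest fold tried, 9 E-E-X contacts fell at iMac and 5 rose at B cell loci, CTCF contacts rose at 68 and fell at 21 iMac sites and rose at 21 and fell at 18 B cell sites, other promoters rose at 57 (iMac) and fell at 11 (B cell), and 15.2% of iMac windows rose. With counts divided by 3, 8 other promoters rose at B cell loci, 17.8% of iMac windows fell, and 12.5% of B cell windows rose and 4.69% fell. Of 480 single promoter values, 448 kept their call, 15 were stronger and 16 weaker, and 1 reversed. The last was IRAG2 at the outermost start (log2 ratio 0.75), where most of the window lies too near the viewpoint to be counted.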
